A study of Mus musculus with 4 samples.

Results

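The 45 genes described here fold, admit, modify, export or destroy proteins of the endoplasmic reticulum (ER), or report stress of that compartment to the nucleus. They were taken by symbol from a fixed list, and all 45 were found among the 41342 named genes of the deposited gene count table. RNA had been sequenced from splenic B cells that were freed of CD43-bearing cells, from male mice of strain 129 aged 8 to 12 weeks. The cells came from ΔleftPAL mice, in which the hs3a-IRIS-hs1,2 part of the 3' regulatory region of the immunoglobulin heavy-chain locus is deleted, and from ΔIRIS mice, which lack the inverted repeats but keep every enhancer, with hs3a turned around. Both lines therefore lack the inverted repeats and carry a broken palindrome, both keep hs3b and hs4, and libraries of wt mice are not analysed here. Each genotype gave 1 library of freshly isolated (resting) cells and 1 library of cells cultured for 48 h (2 days) with 5 µg/ml LPS, the lipopolysaccharide of bacteria and a B-cell activator, so that culture and LPS cannot be told apart. By the labels each library is a pool of B cells of 4 animals, although the study describes the pooling in more than 1 way, and no library has a replicate of its own genotype and state.

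The ER is where secreted and membrane proteins, antibodies among them, enter the secretory route through the Sec61 channel, lose their signal peptide, are folded by chaperones and disulfide isomerases, and leave for the Golgi in coated vesicles. Chains that fail to fold are drawn back into the cytosol and degraded. When folding falls behind, the sensors IRE1 (gene Ern1), PERK (Eif2ak3) and ATF6 (Atf6) start the unfolded protein response: IRE1 splices the mRNA of the transcription factor Xbp1, PERK slows translation and favours translation of Atf4, and ATF6 is cleaved into a transcription factor. B cells that become antibody-secreting cells enlarge their ER, and LPS is a classical trigger of that step.

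Gene counts summed to between 23615496 and 29776108 per library, and 3 counts, the floor used here, were worth 0.102 to 0.123 CPM (counts scaled to a common library size with edgeR's TMM factors). B-cell identity was checked on 5 markers (Cd79a, Cd79b, Ms4a1, Pax5 and Cd22), all of which were present in every library. Their sum was 3162 and 2642 CPM at rest and 1863 and 2024 CPM after LPS in ΔleftPAL and ΔIRIS cells, and 4 of the 5 fell by the edgeR test used below for the members. Of the 6 plasma-cell markers 5 were tested and 3 rose, and their sum went from 564 to 1426 CPM in ΔleftPAL and from 833 to 1019 CPM in ΔIRIS cells. Other cells were also present at rest. The 6 erythroid markers took 4.27% and 2.90% of the reads of the resting ΔleftPAL and ΔIRIS libraries against 0.00565% and 0.0122% after LPS, and the 6 myeloid markers went from 360 and 474 CPM in sum to 14.1 and 20.0. Of the 7 T- and NK-cell markers, 4 were at 0 in LPS-activated ΔleftPAL cells and 5 in LPS-activated ΔIRIS cells, and their sum went from 21.4 and 26.1 CPM to 0.186 and 0.102. The part of these cells and markers in the results was not tested. Fewer cells of a type and less RNA per cell cannot be told apart in such bulk libraries.

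Most of the 45 genes were higher after LPS in both genotypes. The change was tested with edgeR's quasi-likelihood test on the counts of the 4 libraries, with genotype as a block, over the 11286 genes whose counts averaged 50 or more, and a gene was called at a Benjamini-Hochberg adjusted p under 0.05. A gene's own spread in this test is only the disagreement between the responses of the 2 genotypes, with 1 residual degree of freedom. It was moderated by edgeR with the spread of other genes, at 4.35 prior degrees of freedom. Of the 44 members tested, 37 rose, against 36.4% of all genes tested, and 2 fell, Dnajb9 and Eif2ak3, against 27.9% of all genes. The remaining 5, Herpud1, Derl1, Syvn1, Ero1lb and Mcfd2, were not called. In each of the 37 that rose, both LPS libraries lay above both resting libraries, which was the case for 46.4% of all genes tested. At least 2-fold rises in both genotypes were seen for 29 members (17.3% of all genes) and at least 2-fold falls in both for none of them (13.1% of all genes). The median log2 ratio of LPS over resting was 1.51 in ΔleftPAL and 1.28 in ΔIRIS cells for the members, and 0.12 and 0.13 for all genes tested. Together the 45 genes went from 0.397% to 1.00% of the reads in ΔleftPAL cells and from 0.478% to 0.960% in ΔIRIS cells. The plot of member levels shows this shift for most genes and the few that stayed out of it.

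**Figure D1:**
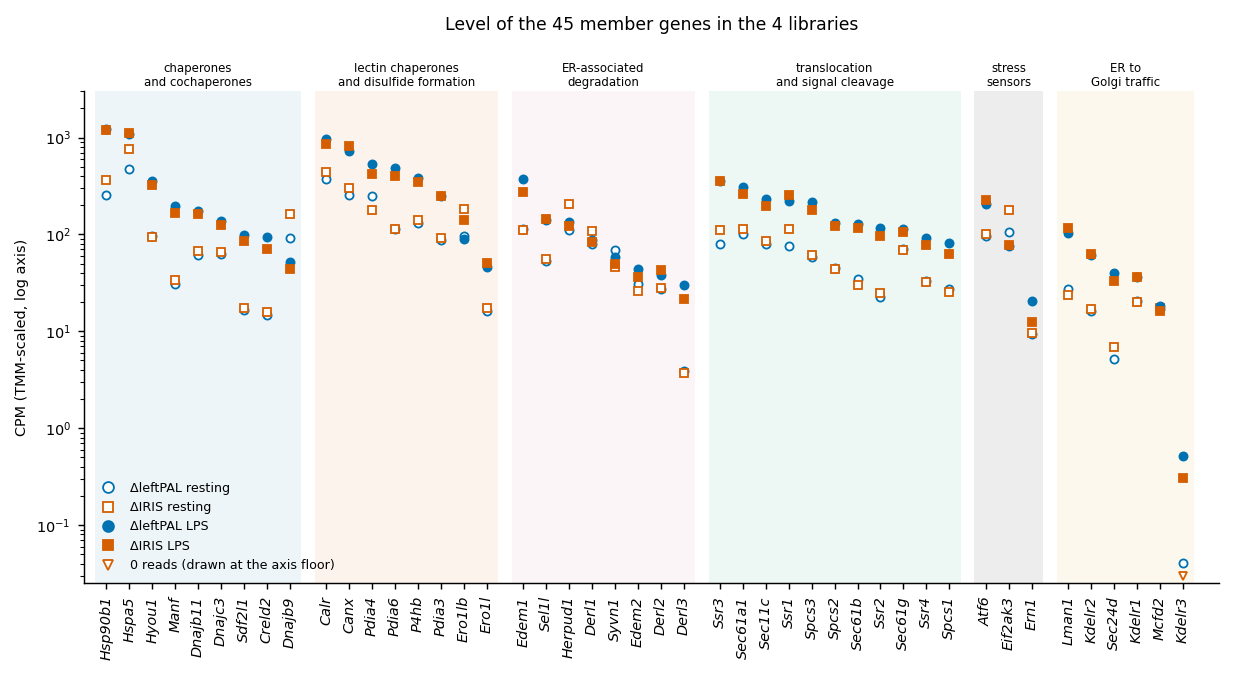
CPM of each of the 45 genes in the 4 libraries on a log axis, grouped by role; open symbols are resting and filled symbols LPS libraries, circles ΔleftPAL and squares ΔIRIS. Filled symbols lie above both open ones for 37 of the 44 tested members, and Dnajb9 and Eif2ak3 stand out with open symbols on top.

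Per length, the same genes led the list in every library. In the kallisto TPM, which are per length and serve here to order genes within a library and as an alternative scale elsewhere, Hspa5 was the highest and Calr the next in all 4 libraries, with 672.5 and 656.8 TPM in LPS-activated ΔleftPAL cells, and Hsp90b1 was 3rd in all 4, with 606.7 TPM there. These are the most abundant Hsp70- and Hsp90-type chaperones and the lectin chaperone of the ER lumen. Ern1, Sec24d and Kdelr3 were among the lowest, with 5.31, 11.5 and 0.612 TPM in the same library. Herpud1 was 4th among the members in resting ΔIRIS cells and 20th in both LPS libraries, and Eif2ak3 went from 13th to 38th in ΔIRIS cells, while Manf moved up from 14th to 7th. Within a library the order of such levels has no replicate error.

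Among the 9 chaperones and cochaperones, 8 rose (36.4% of all genes tested) and 1 fell (27.9% of all genes tested). The largest changes were those of small luminal proteins. Manf, an ER-resident factor released on stress, had 31.1 CPM at rest and 196 after LPS in ΔleftPAL cells, and 33.9 and 165 in ΔIRIS cells. Its log2 change was 2.47 ± 0.16 (SE of the edgeR fit, adjusted p = 0.000253). Creld2, a disulfide-handling ER protein, went from 14.7 to 94.1 CPM in ΔleftPAL and from 15.8 to 70.4 CPM in ΔIRIS cells (log2 change 2.41 ± 0.17). Sdf2l1, a partner of the Hsp40 proteins of the ER, went from 16.8 to 98.9 and from 17.3 to 85.0 CPM (2.43 ± 0.14). In these 3 genes the resting libraries of the genotypes lay close together and the LPS libraries far above them.

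The large chaperones rose as well, from high levels. Hsp90b1 (GRP94; ENSMUSG00000020048, chr10:86690209-86705509, minus strand) had 257 and 1223 CPM at rest and after LPS in ΔleftPAL cells and 366 and 1188 CPM in ΔIRIS cells, with a log2 change of 1.98 ± 0.17 (edgeR adjusted p = 0.000517). Hyou1, an Hsp110-type nucleotide exchanger for the ER Hsp70, had 95.4 and 357 CPM in ΔleftPAL and 94.4 and 324 CPM in ΔIRIS cells (1.84 ± 0.13). Hspa5 (BiP, the ER Hsp70; ENSMUSG00000026864, chr2:34771970-34776531, plus strand) had 477 and 1100 CPM in ΔleftPAL and 752.5 and 1108 CPM in ΔIRIS cells. Its LPS libraries were alike, its resting libraries were not, and the change of 0.88 ± 0.19 (edgeR adjusted p = 0.0093) was 2.31-fold in ΔleftPAL and 1.47-fold in ΔIRIS cells. The call of Hspa5 was lost without the ΔIRIS LPS library and without the ΔleftPAL LPS library, in fits that also dropped the genotype block. In fits of this kind its change ran from 0.55 without resting ΔleftPAL to 1.21 without resting ΔIRIS. Its adjusted p over the alternative fits with all libraries ran from 0.000143 to 0.0292. Dnajb11 and Dnajc3, J-domain cochaperones of BiP, rose with log2 changes of 1.39 and 1.03.

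Dnajb9 (ERdj4; ENSMUSG00000014905, chr12:44205897-44210068, minus strand), a J-domain protein that recruits BiP to IRE1, went the other way. It had 91.1 CPM at rest and 51.6 after LPS in ΔleftPAL cells, and 161 and 43.6 CPM in ΔIRIS cells, a log2 change of -1.35 ± 0.27 (edgeR adjusted p = 0.00758). The LPS libraries did not overlap the resting ones. The fall was 1.76-fold in ΔleftPAL and 3.67-fold in ΔIRIS cells, and the genotypes differed more at rest, with ΔIRIS higher, than after LPS, with ΔIRIS lower (log2 ratio -0.24, counting interval -0.36 to -0.13).

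The promoters of Hspa5 and Hsp90b1 are shown because they carry the ER stress element (ERSE), to which ATF6 and XBP1 are known to bind with NF-Y: CCAAT, any 9 bases, then CCACG, searched on both strands in RefSeq windows of 250 bases before to 50 bases after the start (build GRCm38.p6). Capitals mark the match, the sequence reads 5′ to 3′ on the strand of the gene, and a match on the opposite strand reads as CGTGG, any 9 bases, ATTGG. The Hspa5 stretch is chr2:34772020-34772048 on the plus strand, which GENCODE places inside an exon of the gene, and the Hsp90b1 stretch, with 2 matches in opposite orientations, is chr10:86705518-86705671 on the minus strand.
Hspa5: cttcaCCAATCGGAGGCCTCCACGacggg
Hsp90b1: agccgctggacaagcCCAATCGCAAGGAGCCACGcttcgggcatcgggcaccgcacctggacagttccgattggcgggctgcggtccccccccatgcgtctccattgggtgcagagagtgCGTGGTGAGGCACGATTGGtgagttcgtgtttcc

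Of the 8 lectin chaperones and genes of the disulfide machinery, 7 were called higher (36.4% of all genes tested). Ero1lb was not called. Calreticulin (Calr) and calnexin (Canx) hold glycoproteins by their trimmed glycans, and the Pdia proteins and P4hb form and reshuffle disulfide bonds. Pdia6 had the largest change of the group, from 113 to 485 CPM in ΔleftPAL and from 113 to 397 CPM in ΔIRIS cells (log2 change 1.96 ± 0.14, edgeR adjusted p = 0.000316). Canx went from 253 to 730 CPM in ΔleftPAL and from 303 to 822 CPM in ΔIRIS cells (1.49 ± 0.12). Pdia3, the isomerase that works with the lectin chaperones, went from 87.1 to 248 CPM and from 92.6 to 249 CPM (1.47 ± 0.12), and its 2 LPS libraries did not differ beyond counting error. P4hb went from 131 to 382 CPM and from 141 to 349 CPM (1.43 ± 0.13). Calr and Pdia4 rose with log2 changes of 1.17 and 1.15.

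Of the oxidases that recharge these isomerases, Ero1l was called and Ero1lb was not, a pair not tested against each other. Ero1l (RefSeq symbol Ero1a) rose from 16.3 to 45.7 CPM in ΔleftPAL and from 17.5 to 50.8 CPM in ΔIRIS cells (1.51 ± 0.13, edgeR adjusted p = 0.000508). Ero1lb (RefSeq symbol Ero1b; ENSMUSG00000057069, chr13:12565883-12609526, plus strand) was not called: 96.7 and 90.1 CPM in ΔleftPAL and 181 and 143 CPM in ΔIRIS cells, a log2 change of -0.23 ± 0.13 (edgeR adjusted p = 0.191). Its ΔIRIS libraries lay above its ΔleftPAL libraries in both states, and rest and LPS overlapped. The gene counts of Ero1lb were 0.966 and 0.967 times the kallisto estimates in the resting and LPS libraries of ΔIRIS cells but 0.727 and 0.592 times in those of ΔleftPAL cells, so the difference between genotypes depends on the table. Both Pdia6 and Ero1lb, genes of the plus strand, have an ERSE match, which in Ero1lb lies on the opposite strand. The stretches chr12:17266476-17266524 (Pdia6) and chr13:12565667-12565715 (Ero1lb) are printed since only Pdia6 rose.
Pdia6: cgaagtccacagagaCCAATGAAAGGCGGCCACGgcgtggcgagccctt
Ero1lb: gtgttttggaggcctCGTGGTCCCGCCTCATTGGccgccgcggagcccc

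In ER-associated degradation 5 of 8 genes were called higher (36.4% of all genes tested) and 3 were not called. Of these 5 calls, those of Edem2 and Derl2 were lost in some alternative fits. Derl3 (ENSMUSG00000009092, chr10:75893398-75895941, plus strand), a derlin of secretory cells that helps pull misfolded glycoproteins out of the ER, had the largest fitted change of all members. It had 3.85 CPM (94 reads) at rest and 29.9 CPM (805 reads) after LPS in ΔleftPAL cells, and 3.68 CPM (107 reads) and 21.8 CPM (639 reads) in ΔIRIS cells, a log2 change of 2.76 ± 0.19 (edgeR adjusted p = 0.000318). Edem1, a mannosidase-like protein that marks glycoproteins for disposal, went from 113 to 370 CPM and from 110 to 275 CPM (1.52 ± 0.15). Sel1l, the scaffold of the ubiquitin ligase Hrd1, went from 52.9 to 139.5 CPM and from 55.6 to 143 CPM (1.38 ± 0.13). In these 3 genes the genotypes lay close together at rest.

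Smaller rises were called for Derl2, from 27.6 to 38.2 CPM in ΔleftPAL and from 27.8 to 42.7 CPM in ΔIRIS cells (0.55 ± 0.13, edgeR adjusted p = 0.0149), and for Edem2, from 31.1 to 44.3 CPM and from 26.0 to 36.2 CPM (0.49 ± 0.13, edgeR adjusted p = 0.0192). The Edem2 call was lost under DESeq2 (adjusted p = 0.0594), the highest of a range from 0.00872 over the alternative fits with all libraries. With a library left out and no genotype block, its change ran from 0.34 without the ΔleftPAL LPS library to 0.63 without the ΔIRIS LPS library. In TPM it had 24.2 and 24.6 in ΔleftPAL and 19.4 and 19.5 in ΔIRIS cells, where the medians of all genes tested were -0.14 and -0.13. The Derl2 call was lost without the ΔIRIS LPS library, in a fit that also dropped the genotype block (change 0.47). Its adjusted p over the alternative fits with all libraries ran from 0.00518 to 0.0413. Syvn1 (ENSMUSG00000024807, chr19:6046576-6053712, plus strand), which is Hrd1 itself, was not called: 68.6 and 57.9 CPM in ΔleftPAL and 46.6 and 49.6 CPM in ΔIRIS cells (log2 change -0.08 ± 0.14, edgeR adjusted p = 0.652). Its values after LPS lay inside the range at rest. So the scaffold Sel1l and the ligase Syvn1, members of 1 complex, had log2 changes of 1.38 and -0.08, a pair not tested against each other.

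Herpud1 (ENSMUSG00000031770, chr8:94386438-94395377, plus strand), a membrane protein that joins the Hrd1 complex, and Derl1, another derlin, went opposite ways in the genotypes in CPM, but not in kallisto TPM. Herpud1 had 111 and 133.5 CPM at rest and after LPS in ΔleftPAL cells, and 208 and 121 CPM in ΔIRIS cells. Derl1 had 78.7 and 87.8 CPM in ΔleftPAL and 109 and 84.1 CPM in ΔIRIS cells. In TPM both were lower after LPS in ΔleftPAL cells too, at 103.7 and 95.4 for Herpud1 and 33.5 and 32.3 for Derl1. The median log2 ratio of all genes tested also moved there, from 0.12 in CPM to -0.14 in TPM. The turn in TPM therefore shows no fall relative to other genes. In both genes the resting ΔIRIS library was the highest of the 4. The edgeR changes were -0.26 ± 0.26 (adjusted p = 0.422) for Herpud1 and -0.11 ± 0.17 (adjusted p = 0.597) for Derl1. For Herpud1 the sign and the call hung on the library left out: its change was 0.20 without resting ΔIRIS and -0.71 without resting ΔleftPAL. Derl1 turned sign likewise, at 0.13 and -0.34. These fits also dropped the genotype block, so the turns cannot be put down to a library alone. The adjusted p of Herpud1 over the alternative fits with all libraries ran from 0.281 to 0.715.

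Of the promoters in this group, those of Derl3 (chr10:75893227-75893275, plus strand) and Syvn1 (chr19:6046517-6046565, plus strand) hold an ERSE match, and that of Herpud1 (chr8:94386362-94386402, plus strand) holds an ERSE-II match, ATTGG, any 1 base, then CCACG. They are set beside each other because the gene with the largest rise and 2 of the genes not called each hold such an element.
Derl3: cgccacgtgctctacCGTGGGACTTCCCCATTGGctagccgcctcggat
Syvn1: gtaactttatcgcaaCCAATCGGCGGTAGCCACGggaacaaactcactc
Herpud1: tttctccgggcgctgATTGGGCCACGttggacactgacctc

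All 11 members of the translocation and signal-cleavage group rose (36.4% of all genes tested). Of these, 10 rose at least 2-fold in both genotypes (17.3% of all genes tested). Ssr2, a subunit of the translocon-associated TRAP complex, had 22.6 CPM at rest and 117 after LPS in ΔleftPAL cells, and 24.9 and 96.9 CPM in ΔIRIS cells (log2 change 2.17 ± 0.16, edgeR adjusted p = 0.000329). Ssr3, of the same complex, went from 78.9 to 352.5 CPM and from 112 to 357 CPM (1.92 ± 0.16). Ssr1 went from 76.8 to 221 CPM and from 114 to 253 CPM (1.34 ± 0.15), and Ssr4 rose with a log2 change of 1.37. The 4 TRAP subunits therefore all rose, with fitted log2 changes between 1.34 and 2.17.

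The Sec61 channel has 3 subunits. Sec61b went from 34.8 to 128 CPM in ΔleftPAL and from 30.1 to 117 CPM in ΔIRIS cells (1.92 ± 0.13, edgeR adjusted p = 0.000275), and the pore subunit Sec61a1 rose with a log2 change of 1.41. Sec61g had the smallest rise of the group, 0.63 ± 0.12, and its gene counts were 3.77 to 4.34 times the kallisto estimates, which leaves its level uncertain. The signal peptidase subunits Spcs3 (59.1 to 215 and 61.4 to 180 CPM, log2 change 1.71 ± 0.14) and Spcs2 (44.6 to 133 and 43.6 to 122 CPM, 1.53 ± 0.13) rose, as did Spcs1 (1.43) and the catalytic subunit Sec11c (1.37).

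The 3 sensors moved in different ways. Atf6 rose from 97.0 to 205 CPM in ΔleftPAL and from 102 to 227 CPM in ΔIRIS cells (1.12 ± 0.12, edgeR adjusted p = 0.000998). Ern1 (IRE1; ENSMUSG00000020715, chr11:106394650-106487852, minus strand) went from 9.42 CPM (230 reads) to 20.7 CPM (557 reads) in ΔleftPAL and from 9.53 CPM (277 reads) to 12.5 CPM (366 reads) in ΔIRIS cells. This was called a rise by edgeR (0.76 ± 0.24, adjusted p = 0.0344) but not by DESeq2 (adjusted p = 0.063). Its adjusted p over the alternative fits with all libraries ran from 0.0133 to 0.083. With a library left out and no genotype block, its change ran from 0.40 without the ΔleftPAL LPS library to 1.13 without the ΔIRIS LPS library. In kallisto TPM Ern1 was lower after LPS in ΔIRIS cells, 3.72 at rest and 3.29 after LPS. The median log2 ratio of all genes tested was also below 0 there, at -0.13. Eif2ak3 (PERK; ENSMUSG00000031668, chr6:70844515-70905245, plus strand) fell, from 105 to 76.3 CPM in ΔleftPAL and from 179 to 78.6 CPM in ΔIRIS cells (-0.82 ± 0.20, edgeR adjusted p = 0.016). The LPS libraries of Eif2ak3 were alike and the resting ones were not. Its call, like that of Hspa5, was lost without the ΔIRIS LPS library and without the ΔleftPAL LPS library, in fits that also dropped the genotype block. In fits of this kind its change ran from -0.44 without resting ΔIRIS to -1.205 without resting ΔleftPAL. Its adjusted p over the alternative fits with all libraries ran from 0.000865 to 0.0258.

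Genes of traffic between ER and Golgi rose in 4 of 5 tested (36.4% of all genes tested). Sec24d, a cargo adaptor of the COPII coat, had 5.16 CPM at rest and 40.01 after LPS in ΔleftPAL cells and 6.81 and 33.1 CPM in ΔIRIS cells (2.61 ± 0.21, edgeR adjusted p = 0.000437). Lman1, the cargo receptor ERGIC-53, went from 27.4 to 103 CPM and from 23.4 to 115.5 CPM (2.11 ± 0.15), whereas Mcfd2, the small protein with which it forms its receptor, was not called, at 16.8 and 18.2 CPM in ΔleftPAL and 17.4 and 16.2 CPM in ΔIRIS cells (0.006 ± 0.16, edgeR adjusted p = 0.975). Lman1 rose in both genotypes while the 4 values of Mcfd2 overlapped. Kdelr2 and Kdelr1, receptors that bring escaped ER proteins back, rose from 16.1 to 62.0 and 16.9 to 62.8 CPM (1.92 ± 0.13) and from 20.6 to 36.7 and 20.3 to 36.1 CPM (0.83 ± 0.13).

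Kdelr3 was not tested because it was nearly silent, with 1 read at rest and 14 after LPS in ΔleftPAL cells and 0 and 9 reads in ΔIRIS cells. Counting error alone puts the ratio in ΔleftPAL cells between 1.93 and 537 around 12.7. In ΔIRIS cells it was at least 2.98-fold against a floor of 3 counts in the resting library, and counting error alone allows ratios down to 1.96. The kallisto table listed 21 and 19 estimated counts for this gene at rest and after LPS in ΔleftPAL and 45 and 13 in ΔIRIS cells, so its direction depends on the table.

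The plot of both responses sets each member's change in ΔIRIS cells against its change in ΔleftPAL cells. Of the members named in it, Lman1 and Syvn1 lie above the diagonal. The other named ones lie below it, with Dnajb9, Herpud1, Ern1 and Eif2ak3 farthest, at differences of response (ΔIRIS minus ΔleftPAL, log2) of -1.06, -1.04, -0.72 and -0.72. For Dnajb9, Herpud1 and Eif2ak3 the resting libraries differed more than the LPS libraries, and for Ern1 it was the LPS libraries. The 2 responses use 1 library each per state, and no test of their difference can be had.

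**Figure D2:**
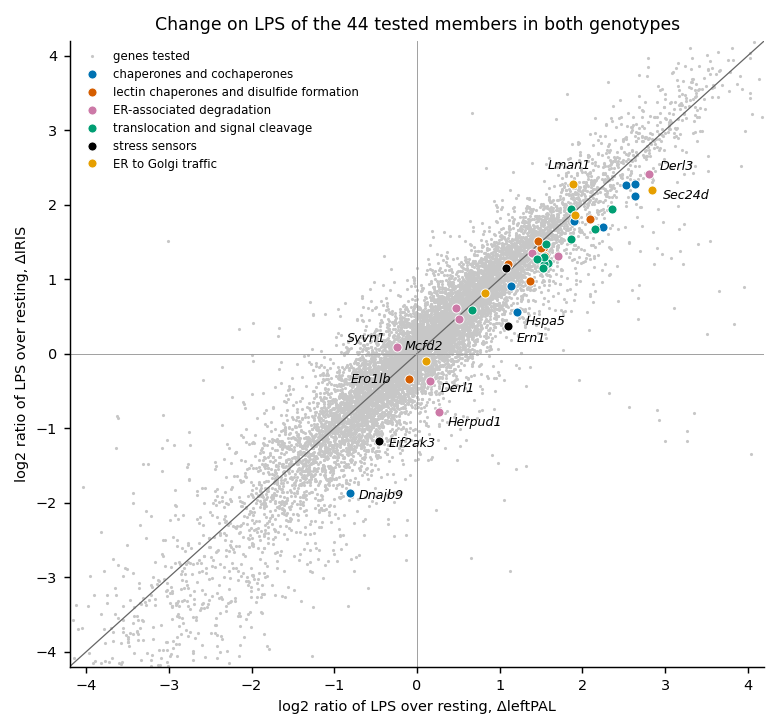
Log2 ratio of LPS over resting (CPM plus 0.5) in ΔleftPAL cells (x axis) and ΔIRIS cells (y axis) for the 44 tested members, coloured by role, and all genes tested in grey; genes beyond the axes are not drawn and the line marks equal responses. Most members lie in the upper right, where both responses are positive, while Dnajb9, Eif2ak3 and, near the centre, Ero1lb lie in the lower left.

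Genes of the same routes that are not among the 45 were followed as lists for comparison. Of 99 such genes 96 were tested, and 62 of them rose (64.6%, against 36.4% of all genes tested) while 6 fell (27.9% of all genes). The oligosaccharyltransferase, which attaches glycans at the translocon, rose in 10 of 12, led by Rpn1 (log2 change 2.33, from 70.0 to 348 CPM in ΔleftPAL and from 57.1 to 288 CPM in ΔIRIS cells) and Ostc (1.72). Other luminal folding genes rose in 14 of 19, led by Fkbp11 (2.81) and the peroxiredoxin Prdx4 (2.26). Coat genes of COPII and COPI vesicles rose in 16 of 22 with 1 falling (Sec24b, -0.56). The largest rises among these were Sec13 (1.39) and Sec23b (1.29). The signal recognition and translocation list rose in 10 of 14, led by Srprb (1.29) and Srp19 (1.24). Other degradation genes rose in 9 of 19 (47.4%, against 36.4% of all genes tested) and fell in 2. Among them were Vcp, the ATPase that extracts substrates, at 1.53, its cofactor Nploc4 at 1.41 and Herpud2 at -1.35.

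Of the 10 tested effector and sensor-processing genes of the unfolded protein response, 3 rose and 3 fell. These shares were near those of all genes tested (36.4% and 27.9%). Xbp1, the target of IRE1, had 61.9 CPM at rest and 389.5 after LPS in ΔleftPAL cells and 64.4 and 260 CPM in ΔIRIS cells (log2 change 2.33 ± 0.19, edgeR adjusted p = 0.000451), a gene-level value that does not separate spliced from unspliced mRNA. Atf4, downstream of PERK and mainly regulated in translation, was not called, at 249 and 230 CPM in ΔleftPAL and 378.5 and 237 CPM in ΔIRIS cells (-0.39 ± 0.17, edgeR adjusted p = 0.0902). Among genes known to follow ATF4, Ddit3 (CHOP) went from 36.7 to 6.68 CPM and from 86.9 to 5.83 CPM (-3.18), Atf3 from 76.9 to 13.9 CPM and from 227 to 14.5 CPM (-3.23), and Ppp1r15a (GADD34) had a log2 change of -3.53. These 3 fell. Chac1 and Trib3 had too few reads to be tested. Chac1 had 6 and 52 reads at rest and after LPS in ΔleftPAL and 19 and 47 in ΔIRIS cells, and Trib3 had 10 and 20 and then 30 and 30. Ddit3, Atf3 and Ppp1r15a were all highest in resting ΔIRIS cells, as Dnajb9, Eif2ak3, Herpud1, Derl1 and Ero1lb among the members were.

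**Figure D3:**
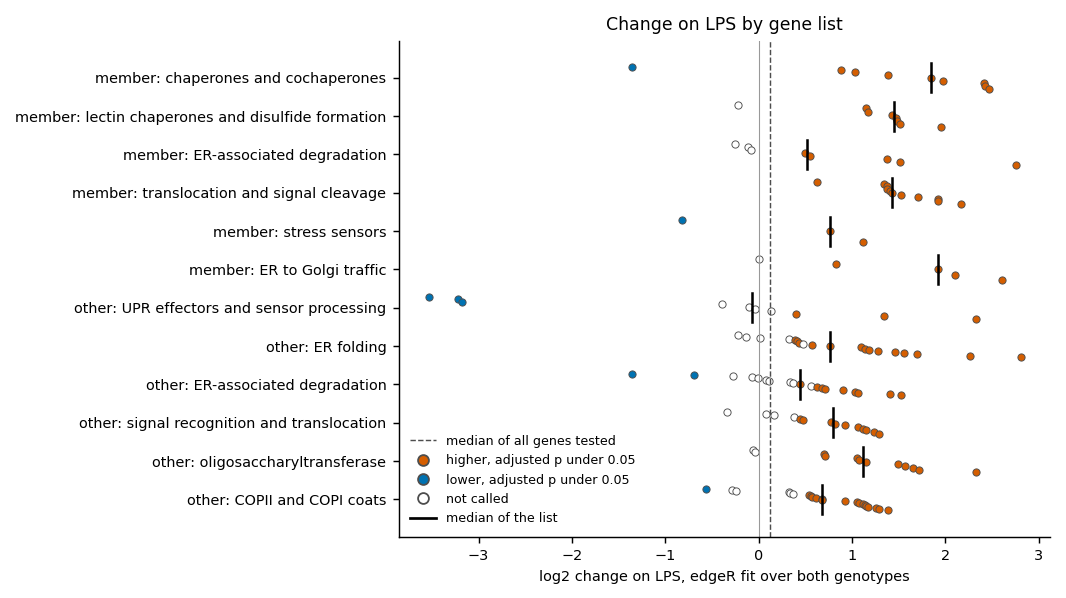
Log2 change on LPS in the edgeR fit for each tested gene of the 6 member groups and of the 6 lists of other ER genes; filled points passed an adjusted p of 0.05 (orange higher, blue lower), open points did not, black bars are list medians and the dashed line is the median of all genes tested. Member medians lie between 0.52 (degradation) and 1.92 (ER to Golgi traffic). The list of effectors and sensor processing is the only one with a median below 0, at -0.07.

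The genotypes were then compared within a state, with 1 library each and so without a test. Intervals given from here on are exact 95% Clopper-Pearson intervals on the log2 scale that cover counting error only, as PCR copies are not independent molecules. Between the LPS libraries the members were slightly lower in ΔIRIS cells. Over the members, the log2 ratio of ΔIRIS to ΔleftPAL had a median of -0.14, against 0.03 over all genes tested, and 31 of 44 were below 0 (44.7% of all genes). At a log2 ratio of 0.32 or more in size, 6 members were lower (13.6%, near the 10.8% of all genes). At this size 1 member was higher (2.27%, against 7.85% of all genes). The interval, which narrows as reads grow, lay below 0 for 28 members (19.4% of all genes), above 0 for 7 (27.6% of all genes) and across 0 for 9.

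The 6 lower ones came from 5 of the 6 roles. Ern1 was farthest, with 557 reads in ΔleftPAL and 366 in ΔIRIS cells after LPS, 1.63-fold lower in ΔIRIS cells (log2 ratio -0.71, interval -0.92 to -0.53), although its resting libraries agreed within counting error (9.42 and 9.53 CPM). Derl3 followed at -0.45 (interval -0.61 to -0.30), Edem1 at -0.43 (-0.47 to -0.39), Creld2 at -0.42 (-0.50 to -0.33), Pdia4 at -0.36 (-0.39 to -0.32) and Spcs1 at -0.35 (-0.44 to -0.26). Pdia4 was also lower by this size at rest, with 248.5 and 532 CPM in ΔleftPAL and 181 and 416 CPM in ΔIRIS cells, while the resting ratios of the other 5 were under it. Ero1lb was the member higher at this size (0.66, interval 0.59 to 0.73), but it was at -0.094 in kallisto TPM. Next in the upward direction were Ssr1 (0.20), Canx (0.17), Lman1 (0.16) and Derl2 (0.16), all under that size.

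Other genes moved with this difference. Xbp1 was 0.58 lower in log2 ratio in the LPS-activated ΔIRIS library (interval -0.63 to -0.54), and all 5 tested markers of plasma cells were lower there, among them Prdm1 (76.0 CPM in ΔleftPAL and 43.9 in ΔIRIS cells) and Igj (501 and 283 CPM). None of the 6 plasma-cell markers was at 0 in either library. Erythroid markers, at 58.2 and 124 CPM in sum, were higher in the ΔIRIS library. The part of any of these in the members' difference was not tested.

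Between the resting libraries the median went the other way and single members lay farther apart. The median of this log2 ratio was 0.08 for members and 0.0002 for all genes, and the members ran from -0.55 to 0.90, against -0.71 to 0.66 after LPS. At the same size of 0.32, 10 members were higher in ΔIRIS cells (22.7%, against 17.5% of all genes). Lower by this size were 2 members (4.55%, against 14.9% of all genes). The higher ones were led by Ero1lb (0.90, on 96.7 and 181 CPM, but 41.01 and 56.64 in TPM, where its ratio was below those of the next 4), Herpud1 (0.90, interval 0.84 to 0.97), Dnajb9 (0.82, interval 0.75 to 0.90), Eif2ak3 (0.76, interval 0.70 to 0.84) and Hspa5 (0.66, interval 0.63 to 0.69). They were followed by Ssr1 (0.56), Hsp90b1 (0.51), Ssr3 (0.50), Derl1 (0.47) and Sec24d (0.37, on 126 and 198 reads). The lower ones were Syvn1 (-0.55, interval -0.66 to -0.45) and Pdia4 (-0.46, interval -0.51 to -0.41). The interval lay above 0 for 17 members (30.3% of all genes), below 0 for 5 (27% of all genes) and across 0 for 22. The same resting ΔIRIS library had the higher levels of Atf3 (log2 ratio 1.55), Ddit3 (1.23) and Irf4 (1.08) and the higher sum of plasma-cell markers (833 against 564 CPM, with Irf4, Prdm1 and Sdc1 higher and the other 3 lower), and its mitochondrial rRNA gene mt-Rnr2 took 19.6% of reads against 14.5% to 15.6% in the other libraries. The resting ΔleftPAL library stood apart in Gm26191 (10.0% of reads against 6.39% to 8.06% in the other libraries) and Rn7sk (3.7% against 1.36% to 2.31%). The part of all these in the members' difference was not tested.

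**Figure D4:**
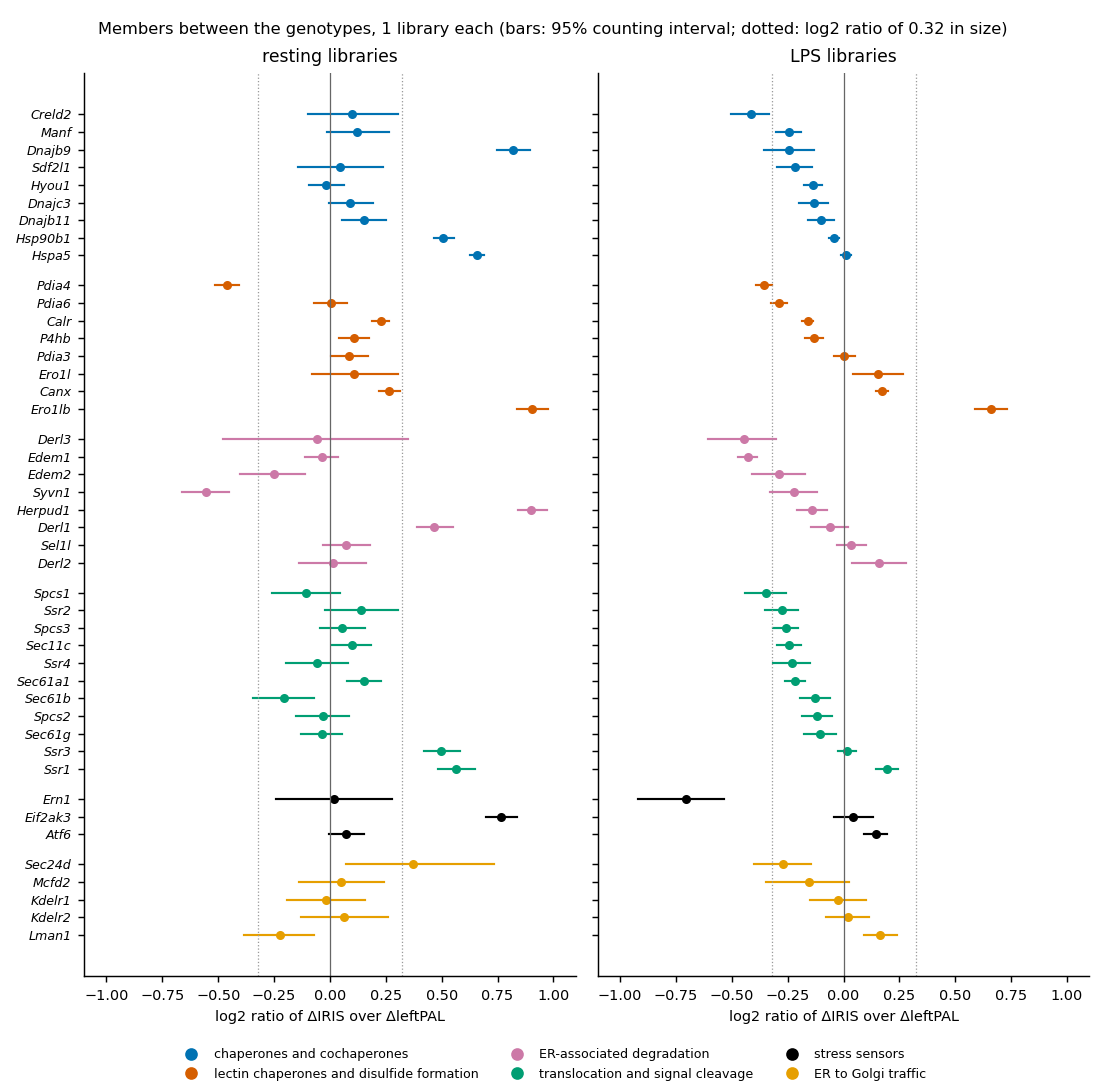
Log2 ratio of ΔIRIS over ΔleftPAL for the 44 tested members in the resting (left) and LPS libraries (right), by role; points are ratios of CPM plus 0.5, bars exact 95% counting intervals and dotted lines a log2 ratio of 0.32 in size. After LPS 31 of 44 points lie left of 0 with Ern1 farthest left, and at rest 10 points lie right of the dotted line with Ero1lb and Herpud1 farthest right.

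Promoter windows were found in the RefSeq table for 35 of the 45 members (36 windows, since a gene can have more than 1). An ERSE match was present in 10 members, 27.8% of the member windows against 0.119% of all 32851 windows: Calr, Canx, Creld2, Derl3, Dnajc3, Ero1lb, Hsp90b1, Hspa5, Pdia6 and Syvn1. An ERSE-II match was present in 2 (5.56% of member windows against 0.0365%), Herpud1 and Dnajb11, the latter after the start. TGACGTGG, the core of the unfolded protein response element, was found in Kdelr3 and Sec24d (5.56% against 0.676%). The short part CCACG, which ERSE and ERSE-II contain, was in 80.6% of member windows and 32.8% of all windows. The matches lay on both strands and, apart from Dnajb11, upstream of the start, between -212 for the farther match of Hsp90b1 and -19 for that of Sec24d.

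**Figure D5:**
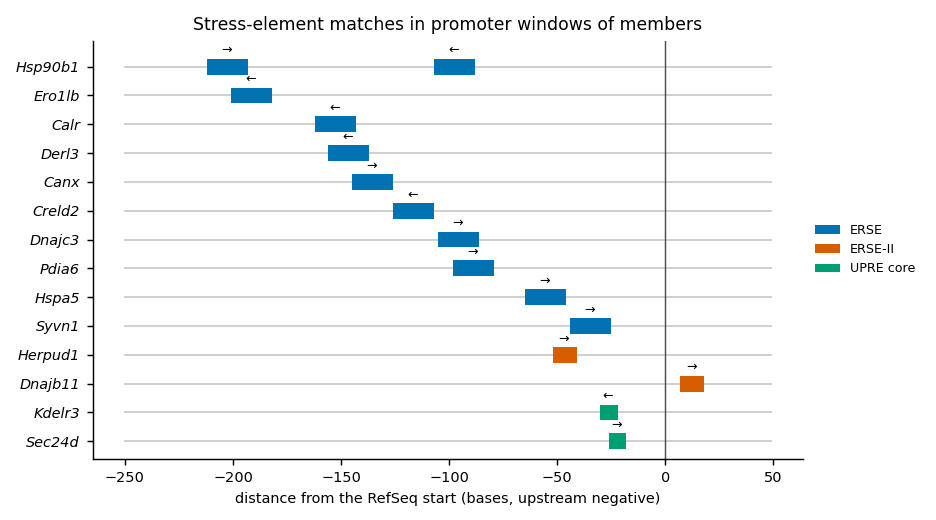
Matches to ERSE, ERSE-II and the core of the unfolded protein response element in the promoter windows of the 14 members that have any, by distance from the RefSeq start in bases; arrows give the strand relative to the gene. All but the match of Dnajb11 lie upstream of the start, and Hsp90b1 has 2.

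Responses were set beside the presence of such an element, without a test. Over all genes tested, 36.4% rose and 27.9% fell. Of the 12 members with ERSE or ERSE-II, 9 rose, 0 fell and 3 (Ero1lb, Herpud1 and Syvn1, all printed above) were not called by edgeR, and their median log2 ratios of LPS over resting were 1.44 in ΔleftPAL and 1.12 in ΔIRIS cells. Of the 22 tested members with a window that held neither, 19 rose, 2 fell and 1 was not called, with medians of 1.45 and 1.28. Of the 10 without a window 9 rose, with medians of 1.87 and 1.66. The members were picked from a pathway for which these elements are known, and a match in 300 bases is a description of the sequence, not of binding.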

How the data were processed

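The authors mapped paired 150-nt reads of rRNA-depleted total RNA (TruSeq Stranded) with STAR 2.4.0a to mm10 with Ensembl 77 gene models. They deposited raw counts of fragments, made by gene name with featureCounts (Subread 1.4.6-p1, strand setting 1, multi-mapped reads included). The authors also deposited kallisto 0.42.3 estimated counts and TPM per transcript, which were summed here per gene; their index and settings are not given in the sources used here. Read 1 of this kit is antisense to the RNA, whereas setting 1 counts sense reads. The gene counts of 42 of the 45 members nevertheless lay within 0.8 and 1.25 times the kallisto estimated counts in every library. Without a settled strand, reads of overlapping antisense genes cannot be told apart, and reads of paralogs are uncertain.

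Members and gene lists were chosen with earlier results of these data known. The row without a gene name (0.00876% to 0.0265% of counts) was left out. The named genes summed to 23615496 counts (rest) and 27777790 (LPS) for ΔleftPAL and to 28707002 (rest) and 29776108 (LPS) for ΔIRIS. CPM and log2 ratios (of CPM plus 0.5, so that changes of low genes come out too small) used TMM factors of edgeR 4.0.16 (R 4.3.3), which were 0.970 to 1.03. The LPS change was tested by edgeR's quasi-likelihood test, genotype plus state, 1 residual degree of freedom, Benjamini-Hochberg over the 11286 genes averaging 50 counts or more. Genotype is the block because resting and cultured cells of a genotype came from the same mice by the study's methods; 4 libraries do not allow a correlation check of this pairing. The p-values measure only the spread between these pooled libraries. Within-state comparisons had 1 library a group and no test. On simulated data for this LPS comparison over 11286 genes, 9, 44, 50 and 50 of 50 genes changed 1.5-, 2-, 4- and 8-fold were called, and 3 unchanged genes were. The simulation gave every gene the same dispersion, let the genotypes respond alike and changed 200 genes. In the real data 4105 genes were called higher and 3148 lower, so the simulated counts need not hold for them.

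Alternatives were DESeq2 1.42.0 (its Wald test and its size factors), total counts, TMM without immunoglobulin genes, filters at a mean of 10 or 200 counts and no filter, no block, kallisto estimated counts and TPM, a prior of 5 CPM, thresholds of 1.5-fold and each library left out. TMM from the tested genes was added after seeing the data. Every member is named, with values in all libraries for up to 5 members of each role with the largest change, those not called or called against the majority, and the 5 farthest apart each way between the LPS libraries; Hspa5 and the other genes given by library beyond this were chosen after their values were seen. Of each other ER list 2 to 4 genes with the largest change are named, Xbp1 and Atf4 always, and Sec24b, Chac1 and Trib3 after their values were seen. Gene positions are the outermost exon bounds deposited with the gene counts and promoter windows are from RefSeq, both of GRCm38, the authors' build. GENCODE M21 served only to see whether printed stretches lie in an exon. Ero1l and Ero1lb were matched by older symbol. Python 3.11.15, pandas 2.3.3 and scipy 1.17.1 were used. 1 listed B-cell marker is not reported here.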

Additional observations from a re-analysis of the deposited data

Results flagged for a closer look

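Among the members, Herpud1 and Derl1 had LPS ratios of opposite sign in ΔleftPAL and ΔIRIS cells in CPM of the gene counts, but not in kallisto TPM. Herpud1 had a log2 ratio of LPS over resting of 0.27 in ΔleftPAL and -0.78 in ΔIRIS cells, a difference of -1.04, and Derl1 had 0.16 and -0.37, a difference of -0.53, with counting intervals clear of 0 in each case. In TPM the ΔleftPAL values of Herpud1 were 103.7 at rest and 95.4 after LPS and those of Derl1 33.5 and 32.3. Both genes were thus lower after LPS in both genotypes on this scale. It also moved the median of all genes tested in ΔleftPAL cells from 0.12 to -0.14, so this shows no fall relative to other genes. Neither difference was tested, as each rests on 1 library per genotype and state. In both genes the resting ΔIRIS library was the highest of the 4.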

How the results depend on the processing

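Of the 39 calls of the edgeR test 34 held under all 14 alternative fits, and no member turned direction in them while called. Edem2 and Ern1 were lost under DESeq2's test and under TMM from the tested genes, a scaling that moved the median of all genes from 0.12 and 0.13 in ΔleftPAL and ΔIRIS cells to 0.00 and -0.03. Fits with a library left out also dropped the genotype block, so their losses cannot be put down to the library alone. They took the lone library of a state to vary like the others. Without LPS-activated ΔIRIS, the calls of Hspa5, Edem2, Derl2 and Eif2ak3 were lost. Without LPS-activated ΔleftPAL, those of Hspa5, Edem2, Ern1 and Eif2ak3 were. Leaving out resting ΔIRIS lost Edem2 and Ern1, and leaving out resting ΔleftPAL lost Ern1 and added Herpud1. The changes of Herpud1, Derl1, Syvn1, Ero1lb and Mcfd2 turned sign between these fits. The count called lower was 1 to 3 over these. With all libraries and no genotype block, 37 members were called higher and 2 lower. The median LPS ratio of members became 1.39 and 1.13 (ΔleftPAL and ΔIRIS) under TMM from the tested genes, 1.22 and 1.00 in TPM, and 1.45 in ΔIRIS cells with kallisto estimated counts. Members lower in both genotypes numbered 1 in TPM at 2-fold and 1 at 1.5-fold. At 1.5-fold 1 member was lower and 1 higher in LPS-activated ΔIRIS cells, and at rest 5 were higher and 0 lower. Members higher by at least 0.32 in LPS-activated ΔIRIS cells numbered 0 with kallisto estimated counts and 0 in TPM, where Ero1lb was at -0.094. In TPM the LPS ratios of Herpud1, Derl1 and Mcfd2 in ΔleftPAL and of Ern1 and Syvn1 in ΔIRIS cells turned below 0. The median of all genes tested turned below 0 too, to -0.14 in ΔleftPAL and -0.13 in ΔIRIS cells. Herpud1 and Derl1 fell less than this median, and Ern1 and Syvn1 lay near it, so their turns alone show no fall relative to other genes. Mcfd2 in ΔleftPAL cells fell by more than the median in TPM, a difference that was not tested. The cause of these shifts was not tested. Depth limits Kdelr3 and, less, Derl3, Sec24d and Ern1.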
